A study of Mus musculus with 6 samples.

Results

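The oligodendrocyte and myelin genes described here are 35 genes chosen by name, each of which matched a single row of the deposited table of 43346 gene symbols. Their RNA was sequenced from the brains of 3 Kdm5c deficient mice and 3 wild-type littermates, all adult males. Both genotypes came from the same kind of mating, in which the mother was a C57BL/6 carrier of the deficiency and the father a 129 wild type, and every animal is recorded as a 50:50 mix of both strains. Kdm5c is an X-linked gene that encodes a demethylase of histone H3 lysine 4, and a male inherits its only copy from the mother. The sources used here do not give the allele, the part of the brain taken or the exact age. Markers of the cell type were present: all 12 defining genes of the oligodendrocyte lineage had reads in every mouse, and their summed level was 3919 to 5032 CPM (counts of a gene scaled to library size) in deficient and 4748 to 5312 CPM in wild-type mice.

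Oligodendrocytes wrap axons of the central nervous system in myelin, a stack of membrane that is rich in galactolipids and cholesterol and is held together by a small set of abundant proteins. The cells arise from precursors that carry the PDGF receptor alpha and the NG2 proteoglycan. Under the transcription factors Olig2, Sox10 and Nkx2-2, and later Myrf, they stop dividing, pass through a premyelinating stage marked by Gpr17 and Bcas1, and turn on the genes of myelin. The genes were grouped by role into 14 genes of myelin structure and cell junctions, 5 of lipid synthesis, 4 of metabolic and transport support, 6 lineage transcription factors, and 6 receptors and stage markers.

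RefSeq promoter windows on build GRCm38.p6 were at hand for 25 of the genes, as 36 windows of the 250 bases before a transcript start. Letters resembling the sites of lineage factors were searched on both strands: ACAAAG and ACAATG (SOX-type), CAGCTG and CATCTG (E-box, the type that Olig factors bind) and CTGGCAC and CTGGTAC (Myrf-type); none of these strings contains another. ACAAAG was in 12 of the 36 windows, against 16.5% of all 32851 windows of this length, and in the genes Apod, Cnp, Gjb1, Lpar1, Mag, Mobp, Opalin, Plekhb1 and Tspan2. CATCTG was in 11 windows against 14.4% of all, CTGGCAC in 5 against 4.19%, ACAATG in 7 against 10.7%, CAGCTG in 2 against 13.0%, and CTGGTAC in 1, that of Mog, against 1.83%. Several windows belong to the same gene and share bases, so these counts are descriptions. The windows below are those of Ugt8a, which was lower in deficient brain, of Pdgfra, which was higher, of Aspa, whose difference lay just outside the threshold, and of the myelin gene Opalin, which did not differ beyond the threshold; capitals mark matches to the searched letters, and each reads 5' to 3' on the strand of the gene.
Ugt8a, chr3:125938653-125938902, minus strand: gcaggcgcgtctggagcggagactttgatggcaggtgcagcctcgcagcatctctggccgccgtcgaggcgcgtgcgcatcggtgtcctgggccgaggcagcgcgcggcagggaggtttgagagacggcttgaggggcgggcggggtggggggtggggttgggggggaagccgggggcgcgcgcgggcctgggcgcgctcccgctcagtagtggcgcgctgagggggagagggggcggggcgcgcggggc
Pdgfra, chr5:75152001-75152250, plus strand: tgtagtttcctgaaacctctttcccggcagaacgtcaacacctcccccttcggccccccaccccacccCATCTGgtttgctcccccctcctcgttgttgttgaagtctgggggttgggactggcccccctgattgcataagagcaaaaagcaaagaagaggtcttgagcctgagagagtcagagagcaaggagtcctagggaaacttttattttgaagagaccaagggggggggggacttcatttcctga
Aspa, chr11:73324638-73324887, minus strand: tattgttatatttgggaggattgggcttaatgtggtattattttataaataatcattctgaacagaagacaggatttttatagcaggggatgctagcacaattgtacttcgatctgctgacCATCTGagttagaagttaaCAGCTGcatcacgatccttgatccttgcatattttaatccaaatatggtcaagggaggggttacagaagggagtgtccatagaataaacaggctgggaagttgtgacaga
Opalin, chr19:41077114-41077363, minus strand: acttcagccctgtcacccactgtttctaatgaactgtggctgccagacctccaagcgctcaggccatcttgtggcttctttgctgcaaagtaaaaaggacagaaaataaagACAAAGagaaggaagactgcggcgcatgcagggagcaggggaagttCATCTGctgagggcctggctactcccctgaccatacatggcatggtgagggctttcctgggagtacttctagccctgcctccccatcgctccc
The Ugt8a window held 32 CG dinucleotides and none of the searched letters, while those of Pdgfra and Opalin held 4 CG dinucleotides each and that of Aspa 2. The median was 4.5 in the 36 windows and 6 in all windows.

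The libraries held 20221675 to 24555412 counts, of which these genes took 0.637 to 0.816% in deficient and 0.764 to 0.853% in wild-type mice. Kdm5c RNA was 72.8 ± 6.75 CPM in deficient and 81.5 ± 3.43 CPM in wild-type mice (SD, n = 3 each), and the difference did not pass the test (edgeR adjusted p = 0.196). The allele is not described, so the genotype labels cannot be checked from this level. Nothing in the labels says how the mice were distributed over litters or days. In a piece of whole tissue, fewer cells of a type and less RNA per cell cannot be told apart.

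Of the 35 genes 34 had enough reads to be tested, and 3 fell and 1 rose in deficient brain at a Benjamini-Hochberg adjusted p under 0.05 in edgeR's quasi-likelihood test, the test behind every adjusted p below. The genes that fell were Tspan2, a tetraspanin of the oligodendrocyte membrane, Trf, which encodes the iron carrier transferrin, and Ugt8a, the enzyme that makes galactosylceramide. The gene that rose was Pdgfra, the growth factor receptor of the precursors. Over all 15127 genes tested 4.93% were called, 2.48% lower and 2.45% higher. The median log2 fold change of the 34 genes was -0.14 beside 0.00 for all genes, and 27 of the 34 values were below 0, against 49.7% of all genes. At an unadjusted p under 0.05, 11 were lower and 1 higher, where 12.8% and 12.1% of all genes were. In 8 genes every deficient mouse was below every wild-type mouse and in 2 every deficient mouse was above, against 16.0% and 14.9% of all genes. The number of genes called lower was 14 without deficient mouse 1, 3 without deficient mouse 2, 1 without deficient mouse 3 or wild-type mouse 3, and 0 without wild-type mouse 1 or 2. The share of all genes called moved with it, from 13.6% without deficient mouse 1 to 0.289% without wild-type mouse 1.

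**Figure D1:**
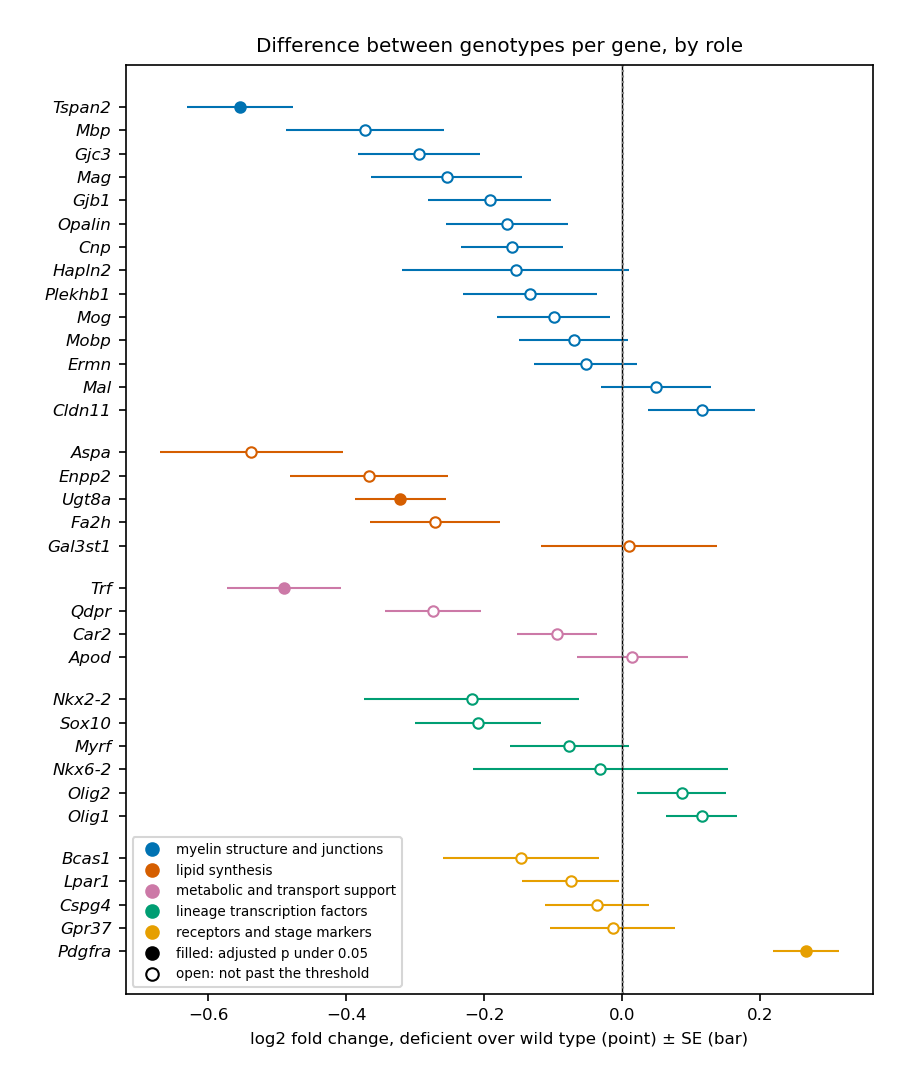
Log2 fold change, deficient over wild type, of the 34 genes tested (points, with bars of 1 SE), grouped and coloured by role. The dotted line is the median of all genes, at 0.00. Filled points passed the threshold of 0.05 on edgeR's adjusted p: Tspan2, Ugt8a and Trf on the lower side and Pdgfra on the higher side, with most open points left of 0.

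Among the 14 genes of myelin structure and junctions 1 fell, none rose and 13 did not pass, beside 2.48% of all genes called lower. DESeq2 called 3 of the 14 lower. The median log2 fold change was -0.16, with 12 of 14 values below 0, beside 49.7% of all genes. Tspan2 was at 154, 142 and 131 CPM in deficient mice 1, 2 and 3 and at 196, 228 and 202 CPM in wild-type mice 1, 2 and 3. Every deficient mouse lay below every wild-type mouse, and the gap between the genotypes was wider than the spread within either. The log2 fold change was -0.55 ± 0.08 (SE), a level 31.9% lower in fitted terms, and it passed (edgeR adjusted p = 0.014). A two-sided exact permutation test of its CPM gave p = 0.1, the smallest that 3 against 3 mice allow. The values rest on 2846 to 4832 reads per mouse. Tspan2 lies on chromosome 3 at 102734529 to 102801513 on the plus strand (GRCm38), and an antisense transcript that overlaps its exons, Tspan2os, had 0 to 3 reads per mouse. In fits that left out 1 mouse its log2 fold change ran from -0.61 to -0.48, and the call was lost without wild-type mouse 1 and without wild-type mouse 2.

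Mbp, which encodes myelin basic protein, the protein that compacts the cytoplasmic faces of the membrane, was the most abundant of the 35 genes per length of transcript, at 602 CPM per kilobase of its longest annotated transcript in wild-type mice. Its level was 2696, 2043 and 1950.2 CPM in the deficient mice and 3012, 3001 and 2648 CPM in the wild-type mice. Deficient mice 2 and 3 were low, while deficient mouse 1 was above wild-type mouse 3, so the genotypes overlapped. The log2 fold change of -0.37 ± 0.11 (SE) did not pass (edgeR adjusted p = 0.0947), and it ran from -0.53 without deficient mouse 1, where it passed, to -0.29. With DESeq2 and with no low-count filter Mbp also passed. Mobp, the second in level at 250 CPM per kilobase in wild-type mice, had a log2 fold change of -0.07 ± 0.08 (SE), and Cnp, the phosphodiesterase of the uncompacted membrane, had -0.16 ± 0.07 (SE). The surface proteins of the sheath were spread over the same range, with the adhesion molecule Mag at -0.25 and Mog, the glycoprotein of the outermost layer, at -0.10 on the log2 scale, neither past the test.

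The junction genes of this group, taken here with the raft gene Mal, differed in sign. Gjc3 and Gjb1, which encode the connexins that couple oligodendrocytes to each other and to astrocytes, had log2 fold changes of -0.30 ± 0.09 and -0.19 ± 0.09 (SE), and Gjc3 was 68.0, 53.2 and 58.7 CPM in deficient against 73.6, 78.2 and 68.8 CPM in wild-type mice, without overlap. Cldn11, the claudin of the tight junctions between myelin layers, had 0.11 ± 0.08 (SE), and Mal, a proteolipid of myelin rafts, 0.05 ± 0.08 (SE). None of these 4 passed the test, at adjusted p from 0.0884 for Gjc3 to 0.74 for Mal by edgeR, though DESeq2 called Gjc3 lower. The sign of Mal turned to -0.026 without deficient mouse 1. Opalin, Ermn, Plekhb1 and Hapln2, genes of mature myelinating cells, had log2 fold changes from -0.17 for Opalin to -0.05 for Ermn, and each overlapped between the genotypes.

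**Figure D2:**
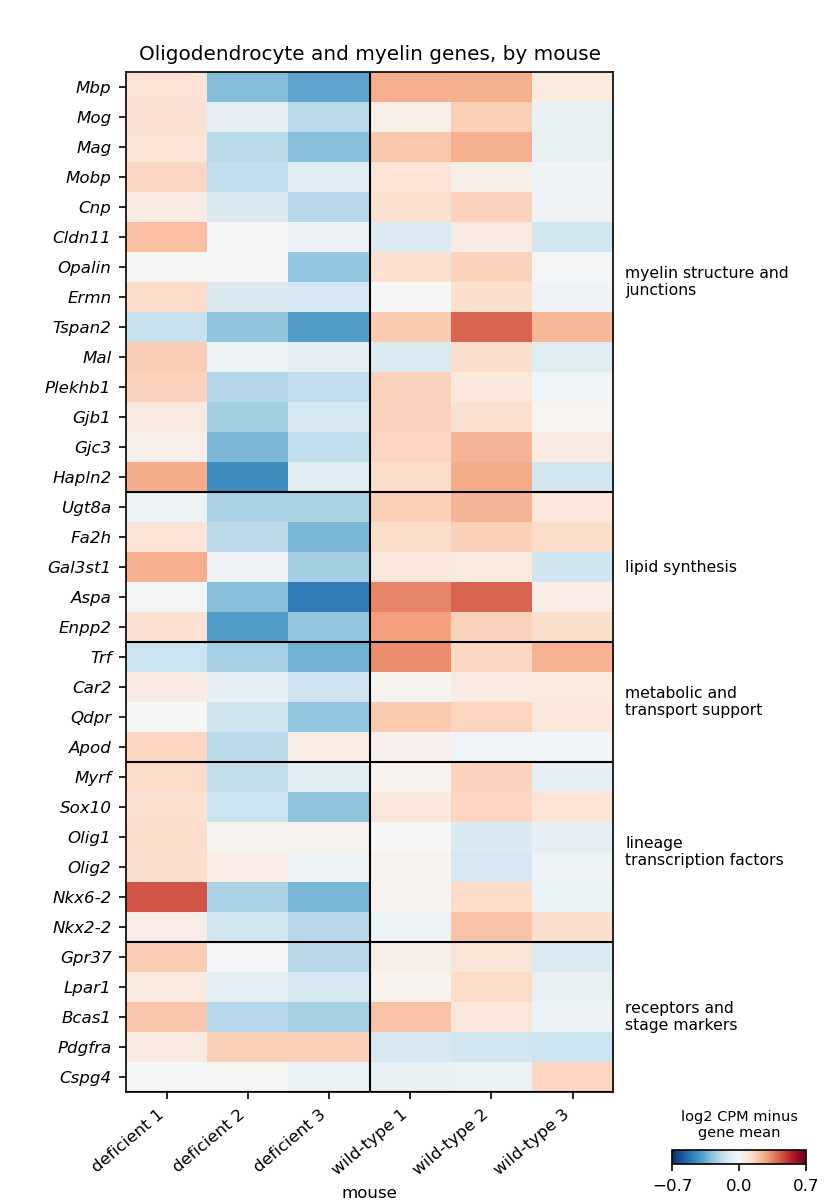
Log2 CPM of each of the 34 genes tested in each mouse, minus the mean of that gene over the 6 mice (blue is below and red above the mean), with genes in rows by role and mice in columns. Deficient mice 2 and 3 are blue in most rows, deficient mouse 1 resembles the wild-type mice in many, and Pdgfra and Olig1 run the other way.

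In lipid synthesis 1 of 5 genes fell, none rose and 4 did not pass, where 2.48% of all genes were called lower. The median log2 fold change was -0.32, and 4 of 5 values were below 0, beside 49.7% of all genes. Ugt8a, whose promoter window is printed above, was at 95.6, 83.8 and 83.9 CPM in the deficient mice and 110.1, 116 and 104 CPM in the wild-type mice. The genotypes did not overlap, and deficient mouse 1 was the nearest to the wild-type range. Its mean was 87.8 ± 6.79 CPM in deficient and 109.7 ± 5.99 CPM in wild-type mice (SD, n = 3 each), and the fitted difference of -0.32 ± 0.07 (log2, SE) passed (edgeR adjusted p = 0.0344). Ugt8a lies on chromosome 3 at 125865271 to 125938619 on the minus strand (GRCm38), and no annotated exon of another gene overlaps its own. Its call was lost with offsets for GC content and transcript length and in 4 of the 6 leave-one-out fits, all but those without deficient mouse 1 or 2, with log2 fold changes from -0.38 to -0.28.

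The other steps of the same branch were not called. Fa2h, which hydroxylates the fatty acids of myelin galactolipids, was at 63.3, 52.0 and 47.5 CPM in deficient and 64.8, 66.6 and 64.9 CPM in wild-type mice. The wild-type mice were close together and deficient mouse 1 lay just below them, and its log2 fold change of -0.27 ± 0.09 (SE) did not pass (edgeR adjusted p = 0.121). Gal3st1, which adds sulfate to galactosylceramide to make sulfatide, had a log2 fold change of 0.01 ± 0.13 (SE), and its sign turned without scaling (-0.0040), with limma-voom (-0.0032), with GC and length offsets (-0.032), without deficient mouse 1 (-0.13) and without wild-type mouse 3 (-0.06). Aspa, the enzyme that splits N-acetylaspartate and so frees acetate for lipid synthesis, was the gene nearest to the threshold on its outer side, at an edgeR adjusted p of 0.0546, as Ugt8a was the nearest on its inner side. It was at 28.8, 23.4 and 20.4 CPM in deficient and 36.9, 38.6 and 29.9 CPM in wild-type mice, a log2 fold change of -0.54 ± 0.13 (SE), close to that of Tspan2 but with more spread between mice. With DESeq2 and with no low-count filter Aspa passed.

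Enpp2, which encodes autotaxin, the enzyme that produces lysophosphatidic acid, was the third in level at 212 CPM per kilobase in wild-type mice. It was at 615, 436 and 474 CPM in deficient and 701, 642 and 625 CPM in wild-type mice, and the log2 fold change of -0.37 ± 0.11 (SE) did not pass (edgeR adjusted p = 0.0965), though it did with DESeq2. Enpp2 is also made by the choroid plexus. The summed level of 8 choroid plexus and ependymal markers, none at 0 in the table, was 591 to 886 CPM in deficient and 783 to 916 CPM in wild-type mice, and its part in the value of Enpp2 was not tested.

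**Figure D3:**
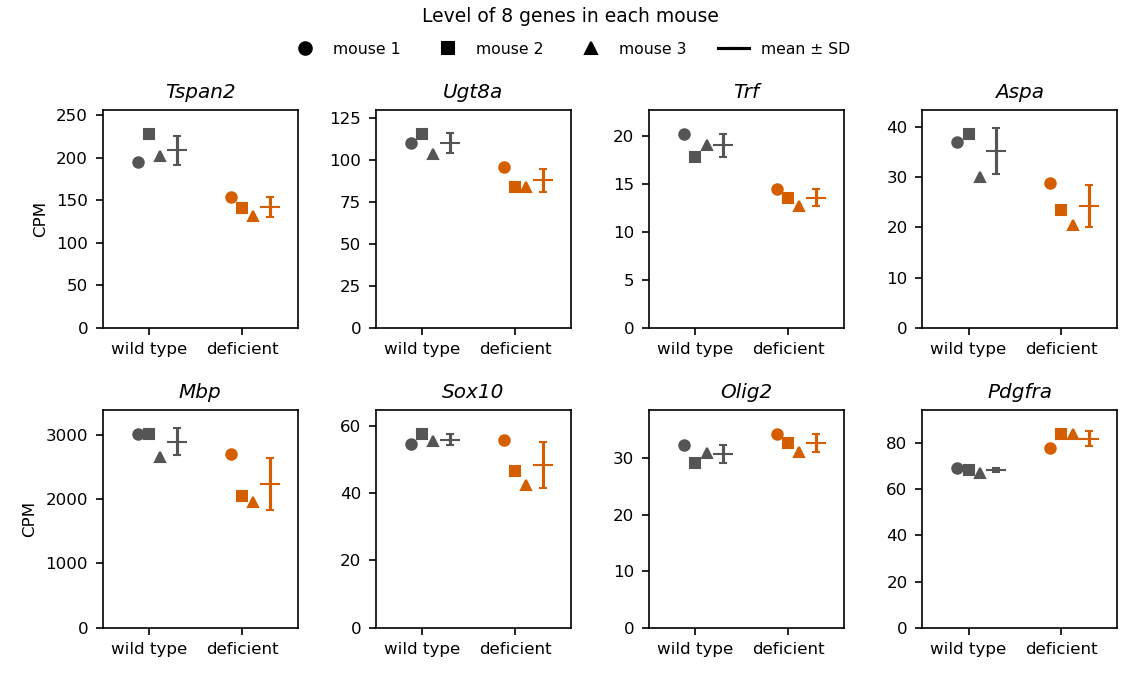
CPM of 8 genes in each mouse (symbols, by mouse number) with the mean and SD of each genotype beside them, on axes that start at 0. Tspan2, Ugt8a, Trf and Aspa are lower in all 3 deficient mice, Mbp, Sox10 and Olig2 overlap between genotypes, and Pdgfra is higher in all 3 deficient mice.

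In metabolic and transport support 1 of 4 genes fell, none rose and 3 did not pass, where 2.48% of all genes were called lower. Trf was at 14.5, 13.6 and 12.7 CPM in deficient and 20.3, 17.9 and 19.1 CPM in wild-type mice, without overlap. Its log2 fold change of -0.49 ± 0.08 (SE) passed (edgeR adjusted p = 0.0226). These values rest on 276 to 501 reads per mouse, fewer than for most of the genes. Trf lies on chromosome 9 at 103204001 to 103230444 on the minus strand (GRCm38), and its exons overlap those of Gm20425 on the same strand, which was listed with 0 reads in every mouse. The sources used here do not say how reads shared by overlapping models were counted, so the level of Trf is uncertain to that extent. Its call was lost in 4 of the 6 leave-one-out fits, all but those without deficient mouse 1 or 2.

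Qdpr, which regenerates the cofactor tetrahydrobiopterin and is abundant in oligodendrocytes, was at 215, 196 and 179 CPM in deficient and 245, 240.3 and 229 CPM in wild-type mice. All deficient mice were below all wild-type mice, and the log2 fold change of -0.28 ± 0.07 (SE) missed the threshold (edgeR adjusted p = 0.0577). With DESeq2, no low-count filter or GC and length offsets Qdpr passed. Car2, a carbonic anhydrase, and Apod, a lipid-binding apolipoprotein, had log2 fold changes of -0.10 ± 0.06 and 0.01 ± 0.08 (SE), and both overlapped between the genotypes.

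None of the 6 lineage transcription factors was called by edgeR, DESeq2 or limma-voom, and 1, Sox10, had an unadjusted p under 0.05 by edgeR. Sox10, which is needed for the expression of myelin genes, was at 55.8, 46.7 and 42.5 CPM in deficient and 54.7, 57.6 and 55.3 CPM in wild-type mice. Deficient mice 2 and 3 were below the wild-type mice and deficient mouse 1 was within their range, and the log2 fold change of -0.21 ± 0.09 (SE) did not pass (edgeR adjusted p = 0.197). Myrf, the factor that drives myelin genes directly, had -0.08 ± 0.09 (SE). Olig2, which specifies the lineage, was at 34.3, 32.7 and 31.0 CPM in deficient and 32.2, 29.1 and 30.9 CPM in wild-type mice, a log2 fold change of 0.09 ± 0.06 (SE) with overlap. Its neighbour on chromosome 16, Olig1, was at 142, 132 and 132 CPM in deficient and 129.9, 121 and 124 CPM in wild-type mice, without overlap and above rather than below, and its log2 fold change of 0.11 ± 0.05 (SE) did not pass (edgeR adjusted p = 0.206).

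The remaining factors were low in level. Nkx2-2, which acts as precursors differentiate, was at 2.26 to 2.77 CPM in deficient and 2.59 to 3.13 CPM in wild-type mice, on 49 to 67 reads per mouse. Nkx6-2, a factor of late myelination and paranode formation, ranged from 12.8 to 21.9 CPM in deficient and from 15.5 to 17.7 CPM in wild-type mice, the highest value being that of deficient mouse 1. Its log2 fold change of -0.03 ± 0.18 (SE) turned to 0.07 without deficient mouse 2, 0.11 without deficient mouse 3 and 0.02 without wild-type mouse 2.

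Among receptors and stage markers 1 of the 5 tested genes rose, none fell and 4 did not pass. Over all genes 2.45% were called higher. Pdgfra was at 77.8, 83.6 and 83.8 CPM in deficient mice and 68.8, 68.1 and 67.0 CPM in wild-type mice. The wild-type mice were close to each other and all 3 deficient mice lay above them, with deficient mouse 1 the nearest. Its log2 fold change of 0.27 ± 0.05 (SE), a fitted level 20.2% higher, passed (edgeR adjusted p = 0.0241). Pdgfra lies on chromosome 5 at 75152292 to 75198215 on the plus strand (GRCm38), and its exons overlap a microRNA gene, Mir7025, listed at 0 reads, and antisense models, whose reads cannot be told apart from its own if strand was not used in counting. The call was lost in the fits without deficient mouse 3 or without wild-type mouse 1, 2 or 3, at log2 fold changes from 0.25 to 0.30. Cspg4, which encodes NG2, the other marker of the precursors, was at 21.3, 21.6 and 20.8 CPM in deficient and 20.7, 20.7 and 23.9 CPM in wild-type mice. Its log2 fold change was -0.04 ± 0.08 (SE) and its genotypes overlapped.

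Bcas1, a gene of early myelinating cells, had a log2 fold change of -0.15 ± 0.11 (SE), Lpar1, a receptor for lysophosphatidic acid, -0.07 ± 0.07 (SE), and Gpr37, a receptor of differentiating cells, -0.01 ± 0.09 (SE). Gpr17, the receptor of the premyelinating stage, was too low to test, with 17, 5 and 10 reads in deficient and 7, 9 and 10 reads in wild-type mice.

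The deficient mice were not alike. Deficient mouse 1 had the highest level of the 3 deficient mice in 32 of the 34 genes, and it lay within the wild-type range in 14 and above it in 12. Deficient mouse 2 was below every wild-type mouse in 25 genes and deficient mouse 3 in 26, and both were below in 23. The mean deviation of the 34 genes from their 6-mouse means was 0.10, -0.14 and -0.18 in deficient mice 1, 2 and 3 and 0.09, 0.13 and 0.01 in wild-type mice 1, 2 and 3 on the log2 scale. Deficient mouse 1 was below all wild-type mice in 4 of 5 genes of lipid synthesis, 2 of 4 of support, 2 of 14 of structure and 0 of 6 lineage factors; these shares were not compared by a test. Among wild-type mice, mouse 3 had the lowest level in 24 of the 34 genes. The counts in this paragraph were not made over all genes, so no background share stands beside them.

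The called genes were also set against Mbp within each library, a ratio that library size does not enter. The log2 ratio of Pdgfra to Mbp was -5.11, -4.60 and -4.53 in deficient mice, and -5.44, -5.45 and -5.29 among the wild types. It was higher in every deficient mouse. The difference was 0.65, a ratio 1.57 times as large in deficient mice. The ratio of Tspan2 to Mbp differed by -0.17, that of Trf by -0.09 and that of Ugt8a by 0.06, each with overlap between the genotypes. Relative to the mean of the 13 myelin structure genes that were not called, Tspan2 differed by -0.41, Trf by -0.33, Ugt8a by -0.18 and Pdgfra by 0.41. The called genes, and the 13 by their absence of a call, were chosen by the same comparison, so all these ratios are given without a test.

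**Figure D4:**
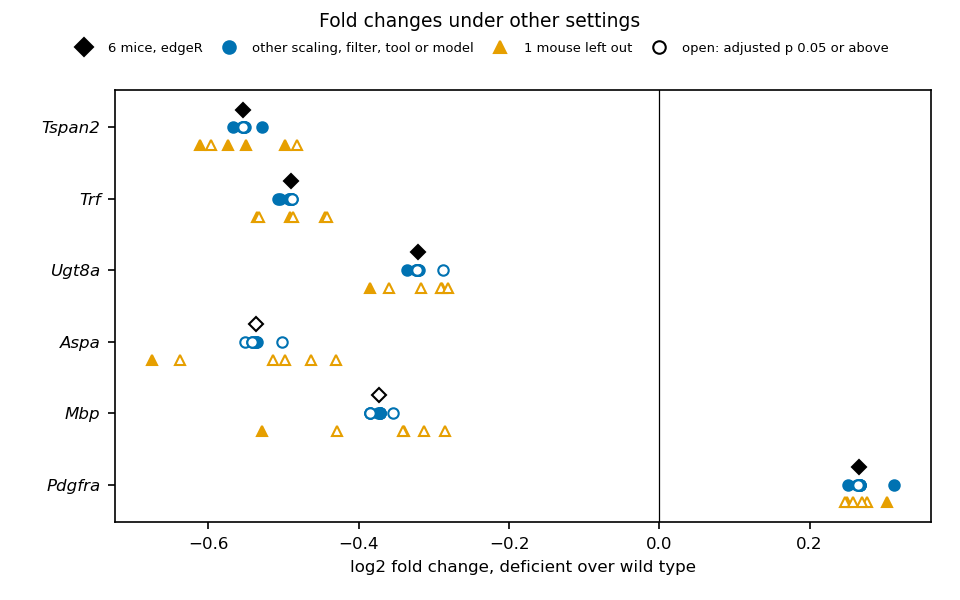
Log2 fold change of 6 genes with 6 mice and edgeR (diamonds), with another scaling, filter, tool or model (circles) and with 1 mouse left out (triangles); open symbols had an adjusted p of 0.05 or more. The signs of Tspan2, Trf, Ugt8a, Aspa, Mbp and Pdgfra held in every fit shown, while the calls came and went with the mouse left out.

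Further genes of the lineage were listed apart from the 35. Of 31 tested genes of mature oligodendrocytes 1 fell, none rose and 30 did not pass, where 2.48% of all genes were called lower, with 27 values below 0 and a median log2 fold change of -0.11. At an unadjusted p under 0.05, 11 were lower and 1 higher, beside 12.8% and 12.1% of all genes, and 6 were below and 1 above the wild-type mice without overlap, beside 16.0% and 14.9%. The gene that fell was Il33, a nuclear alarmin cytokine, at 40.6, 40.4 and 33.7 CPM in deficient and 55.3, 62.1 and 55.7 CPM in wild-type mice. Its genotypes did not overlap; it had a log2 fold change of -0.59 ± 0.08 (SE) and passed (edgeR adjusted p = 0.0139). Tmem63a and Phldb1 had -0.33 and -0.27, and Gamt, the enzyme of the last step of creatine synthesis, had 0.29, none past the test. In deficient mice 1, 2 and 3 the mean deviation of this list was 0.04, -0.14 and -0.15, and in wild-type mice 0.08, 0.17 and 0.01, with deficient mice 2 and 3 lowest, as in the 34 genes. Without deficient mouse 1, 12 of these genes were called lower, beside 997 of all 15379 genes. Without wild-type mouse 1 or 2 the number was 0, where 6 of all genes were called lower in each fit.

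Genes of precursors and committed cells were spread about 0, with 10 of 19 tested values below it and a median of -0.01. Of these genes 1 was called higher and 0 lower, beside 2.45% and 2.48% of all genes. Tmem100 rose, at 9.92, 12.1 and 11.2 CPM in deficient and 7.61, 8.42 and 8.22 CPM in wild-type mice (log2 fold change 0.46 ± 0.10, SE; edgeR adjusted p = 0.0449). Enpp6, a phosphodiesterase of newly formed oligodendrocytes, had -0.41 ± 0.13, Vcan -0.32 ± 0.12 and Pcdh15 -0.28 ± 0.11 (SE), and none of these passed. A gene of this list was called higher in the fit without deficient mouse 1 and in none of the other 5 leave-one-out fits. Without deficient mouse 1, 1101 of all 15379 genes were called higher.

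Of 24 genes of sphingolipid and galactolipid metabolism 1 fell and none rose, where 2.48% of all genes were called lower. The median log2 fold change was -0.02, with 13 values below 0 and 11 above. Without overlap, 5 were below the wild-type mice and 1 above, beside 16.0% and 14.9% of all genes. Elovl7, an elongase of very long fatty acids, was at 32.7, 28.3 and 27.4 CPM in deficient and 37.2, 42.0 and 39.7 CPM in wild-type mice (log2 fold change -0.43 ± 0.08, SE; edgeR adjusted p = 0.0258). The number of genes of this list called lower was 3 without deficient mouse 1, beside 997 of all 15379 genes. It was 0 without deficient mouse 3 or wild-type mouse 1, 2 or 3, where 6 to 65 of all genes were called lower. Asah1, Kdsr and Sgms2, which act in ceramide breakdown, sphingoid base synthesis and sphingomyelin synthesis, had -0.14, -0.14 and -0.35 and did not pass. No regulator of the lineage was called by edgeR among 23 tested, while DESeq2 called 1 lower and 1 higher. At an unadjusted p under 0.05 by edgeR, 2 were lower and 2 higher, beside 12.8% and 12.1% of all genes. Those with the smallest p were the growth factor receptor gene Fgfr2 (-0.29), the inhibitors of differentiation Id4 (0.26) and Hes5 (0.33), and the neuregulin receptor gene Erbb3 (-0.34).

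Among 12 genes listed as axonal partners of myelin 1 fell and none rose, where 2.48% of all genes were called lower. The listed genes encode proteins that anchor the sheath or build the node of Ranvier. Counts from whole tissue do not tell which cells made these transcripts. Sptbn4, the spectrin of the node, was at 206, 191 and 211 CPM in deficient and 247, 238 and 245 CPM in wild-type mice (log2 fold change -0.26 ± 0.05, SE; edgeR adjusted p = 0.0293). All deficient mice, mouse 1 included, were below all wild-type mice. For axonal partners the number called lower was 4 without deficient mouse 1, beside 997 of all 15379 genes. It was 0 when deficient mouse 3 or any wild-type mouse was left out, where 6 to 65 of all genes were called lower. Cntnap1, the axonal protein of the paranode, had -0.17, Ank3, the ankyrin of the node, -0.16, and Nfasc -0.18, each without overlap and none past the test. Of the 12 genes, 5 were below the wild-type mice without overlap and 1 above, beside 16.0% and 14.9% of all genes. The exons of Sptbn4 and Cntnap1 overlap other annotated genes.

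**Figure D5:**
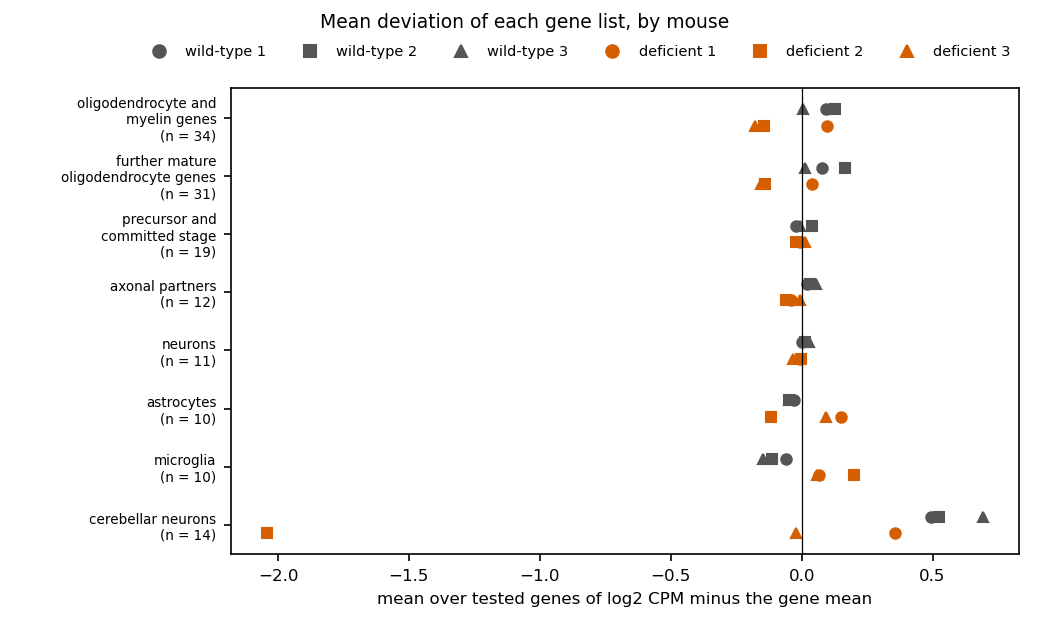
Mean deviation of each gene list in each mouse: the mean over the tested genes of log2 CPM minus the gene's mean over the 6 mice, with wild-type mice in grey and deficient mice in orange. Deficient mouse 2 stands apart in cerebellar neuron genes at -2.04, and deficient mice 2 and 3 lie together below the wild-type mice in oligodendrocyte genes.

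Markers of other cells were measured in the same libraries. Of 14 genes of cerebellar neurons none was called by edgeR and 5 were lower at an unadjusted p under 0.05, and all 14 had log2 fold changes below 0, with 12 below the wild-type mice without overlap. Of all genes 12.8% were lower at that p, 49.7% were below 0 and 16.0% were below without overlap. Their summed level was 1143 to 3078 CPM in deficient and 3426 to 3924 CPM in wild-type mice, and their mean deviation was 0.35, -2.04 and -0.02 in deficient mice 1, 2 and 3. Grm4, the gene with the smallest p of this list, was at 109, 42.8 and 94.8 CPM in deficient and 144, 144 and 155 CPM in wild-type mice. No marker of this list was at 0. Deficient mouse 1 was the highest of the deficient mice in the mean of this list, as in that of the 34 oligodendrocyte genes. Without deficient mouse 2, which stood apart in these markers, Tspan2, Trf, Ugt8a and Pdgfra passed. The median log2 fold change of the 35 genes then tested was -0.08, against -0.14 in the 34 genes with all mice. Deficient mice 1 and 3, which stayed in that fit, were also below every wild-type mouse in the summed level, at 3078 and 2523 CPM. The part of tissue composition in these values was not tested.

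Of 10 microglial markers 8 had values above 0 and 1 rose, Siglech, at a log2 fold change of 0.66 ± 0.10 (SE; edgeR adjusted p = 0.0193), while 7 were higher at an unadjusted p under 0.05 and 5 were above without overlap, beside 12.1% and 14.9% of all genes. Their summed level was 297 to 337 CPM in deficient and 268 to 274 CPM in wild-type mice. Of 10 astrocyte markers 1 rose, Gja1 at 0.23 ± 0.05 (SE, edgeR adjusted p = 0.0311), with 4 higher at an unadjusted p under 0.05 and 4 above without overlap. Over all genes 2.45% were called higher. Of the 10 astrocyte values 6 were above 0 and 4 below, and their median was 0.04. Their mean deviation was 0.15, -0.12 and 0.09 in deficient mice 1, 2 and 3, and -0.03, -0.05 and -0.05 in wild-type mice. The summed level was 5440.3 to 5859.7 CPM in deficient and 5033 to 5311 CPM in wild-type mice. Csf1r of the microglial list and Gfap of the astrocyte list had 0.22 and 0.42 without passing. Of 10 endothelial and mural markers none was called by edgeR, with 3 higher at an unadjusted p under 0.05 and 3 above without overlap. Of these 10 values 7 were above 0 and 3 below, and the largest was 0.41. Vtn (0.25) and Pecam1 (0.22) had the smallest p of the list. The summed level was 347 to 375 CPM in deficient and 303 to 350 CPM in wild-type mice. No marker of these 3 lists was at 0. The part of these other cells in the values of the oligodendrocyte genes was not tested.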

How the data were processed

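RNA of 3 Kdm5c deficient and 3 wild-type brains was sequenced from Illumina TruSeq libraries, per the labels' protocols. The deposited table holds raw counts per gene symbol and mouse, not normalized by the authors. The authors also deposited a mean signal, log2 fold changes with standard errors, a test score and p-values, which were not used here. The submitters' processing notes name DESeq2 and GRCm38; the sources used here give no aligner, counter, annotation or strand setting.

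Counts were fitted in R 4.3.3 with edgeR 4.0.16 (trimmed mean of M-values, default filter with minimum count 10 and minimum total count 15, quasi-likelihood test, genotype alone in the model) on all 15127 genes kept, which held over 99% of each library, with Benjamini-Hochberg adjustment over all of them. CPM are relative to scaled library totals; deviations use log2 of CPM plus 0.5, and ratios do too; a permutation test planned for the ratios is not reported, since the same comparison chose their genes. SE were taken from the F statistic. Each mouse had 20221675 to 24555412 counts. The p-values rest only on these mice. They combine count noise with the spread between mice, which edgeR estimates with information shared across genes. Positions came from GENCODE M21 (GRCm38) by symbol, promoters from RefSeq (GRCm38.p6). Alternatives were other scalings and filters, DESeq2 1.42.0, limma 3.58.1 with voom, the replicate number as a block, GC and length offsets, a threshold of 0.1 and leaving out each mouse. The fits were tested on simulated data. The genes were given by name, and they and the lists were chosen with earlier results of these data known. All 35 genes are accounted for; those called, those nearest to the threshold, Mbp, Olig2, Sox10 and Pdgfra are given in every mouse, and from each further list up to 4 genes with the smallest p-values (2 for cell type markers). Lhfpl3 and Zfp24 of the further lists matched no row.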

Additional observations from a re-analysis of the deposited data

How the results depend on the processing

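With median-ratio or upper quartile scaling, no scaling, a low-count cutoff of 5 CPM in 3 mice, and limma-voom, the counts of genes called, for the 35 genes, their role groups, the further lists and all genes, stayed within 1.5 times. DESeq2 called 612 genes lower and 601 higher in all; of the 35, 8 were lower, with 3 in myelin structure, 3 in lipid synthesis and 2 in support, and of the further lists 4 mature genes, 3 axonal partners and 1 regulator were lower and 1 regulator higher. No low-count filter gave 563 lower and 558 higher in all, 6 of the 35 lower (2 in each of structure, lipid synthesis and support), 3 mature genes lower, and 1 regulator lower and 1 higher. A threshold of 0.1 gave 935 lower and 857 higher in all, 8 of the 35 lower (3, 3 and 2), 4 mature genes lower and 1 higher, 4 axonal partners lower, and 1 regulator lower and 1 higher. With GC and length offsets 0 genes of lipid synthesis and 2 of support were lower. The cause of these shifts was not tested.

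Same-numbered mice had correlations of deviations of -0.06, -0.06 and 0.14, and other pairs ran from -0.11 to 0.16. Not every mouse correlated best with its own number. These deviations are from means of 3 mice per genotype, so the correlations cannot exclude a pairing by litter or day. With the replicate block 9 genes were lower and 49 higher in all, and 0 of the 35 and of the precursor, sphingolipid and axonal lists were called, while 1 mature gene was lower as before.

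Leaving out 1 mouse gave 6 to 997 genes lower and 38 to 1101 higher in all. For the 35 genes the range was 0 to 14 lower and 0 to 1 higher, with 0 to 6 lower in structure, 0 to 4 in lipid synthesis, 0 to 2 in support, 0 to 1 in lineage factors, and 0 to 1 lower and 0 to 1 higher in receptors and stage markers. In the further lists it was 0 to 12 mature genes lower, 0 to 1 precursor gene higher, 0 to 3 sphingolipid genes lower, 0 to 5 regulators lower and 0 to 1 higher, and 0 to 4 axonal partners lower and 0 to 1 higher. The median log2 fold change of the genes tested ran from -0.23 without deficient mouse 1 to -0.07 without deficient mouse 3.

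Of the 34 genes 27 kept their sign in every fit. None of the other 7 was called. With offsets for GC content and length Gal3st1 turned to -0.032, Apod to -0.0070, Gpr37 to 0.0067 and Cspg4 to 0.037, and Gal3st1 turned to -0.0040 without scaling and to -0.0032 with limma-voom. Leaving out 1 mouse moved Mal from -0.026 to 0.12, Hapln2 from -0.34 to 0.0079, Gal3st1 from -0.13 to 0.12, Apod from -0.060 to 0.11, Nkx6-2 from -0.31 to 0.11, Gpr37 from -0.11 to 0.074 and Cspg4 from -0.072 to 0.039. The cause was not tested.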

Other observations

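Of 11 neuronal markers none was called by edgeR. At an unadjusted p under 0.05, 3 were lower and 1 higher, beside 12.8% and 12.1% of all genes. Of the 11 values 7 were above 0, the median log2 fold change was 0.02, and the summed level was 7884 to 8703 CPM in deficient and 7778 to 8129 CPM in wild-type mice. The 3 lower genes encode neurofilaments, the scaffold of large axons, and had the opposite sign to most of the list. Nefh, the heavy subunit, was at 228, 154 and 158 CPM in deficient and 240.4, 287 and 215 CPM in wild-type mice, a log2 fold change of -0.46 ± 0.16 (SE) that did not pass (edgeR adjusted p = 0.119). As for Mbp, deficient mice 2 and 3 were below the wild-type mice and deficient mouse 1 was among them. Nefm and Nefl, named after their values were seen, had -0.23 ± 0.08 and -0.21 ± 0.08 (SE), and Syt1, a synaptic vesicle gene, had 0.29 ± 0.10 (SE), none past the test.

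Genes of peripheral myelin, made by Schwann cells, gave no call among 6 tested by edgeR. At an unadjusted p under 0.05, 1 was lower and 2 were higher, beside 12.8% and 12.1% of all genes. Pmp22 was at 38.1, 26.2 and 30.3 CPM in deficient and 41.9, 40.9 and 39.0 CPM in wild-type mice (log2 fold change -0.37 ± 0.12, SE), and Egr2, which is also an activity-regulated gene of neurons, had 0.58 ± 0.22 (SE). Pmp2 was listed at 0 in every mouse. Its exons overlap those of Gm37389 on the same strand, and how shared reads were counted is not given, so its level is uncertain. Of 8 choroid plexus and ependymal markers none was called by edgeR. Of their values 6 were above 0 and 2 below, with a median log2 fold change of 0.07. At an unadjusted p under 0.05, 2 were higher and 0 lower, beside 12.1% and 12.8% of all genes. Rarres2 and Tmem212, those with the smallest p, had 0.65 and 0.67 on the log2 scale. The summed level was 591 to 886 CPM in deficient and 783 to 916 CPM in wild-type mice.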
